A study of Mus musculus with 547 samples.

Results

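Bile acids are made from cholesterol by a chain of enzymes in the liver, and 10 genes of that chain were followed here while hepatoblasts of the mouse fetal liver become hepatocytes or cholangiocytes. The genes were chosen by name: Cyp7a1, Cyp8b1, Cyp27a1, Cyp7b1, Hsd3b7, Akr1d1, Slc27a5, Amacr, Acox2 and Baat. They are 10 of the 40824 genes in the count tables, each was found once by its symbol, and all 10 passed the filter on low counts in the bulk libraries and in the summed embryo cells, while 6 passed it in the explant cells.

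The classic route of bile acid synthesis opens with Cyp7a1, the rate-limiting enzyme, which hydroxylates the ring of cholesterol. An alternative route opens with Cyp27a1, a mitochondrial enzyme that oxidises the sterol side chain, and continues with Cyp7b1, which hydroxylates the ring of the resulting oxysterols. Hsd3b7 and Akr1d1 then remodel the ring, and Cyp8b1 adds the hydroxyl group that makes cholic acid. Amacr and Acox2 act on the side chain as it is shortened in the peroxisome. Slc27a5 links bile acids to coenzyme A, and Baat joins the product to taurine or glycine. Fetal bile acid synthesis is low compared with that of the adult, and hepatocytes, not the cholangiocytes that line the bile ducts, carry out the whole chain.

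The study asked when hepatoblasts turn into hepatocytes and whether MAPK signalling promotes the maturation of cholangiocytes. For the first question, bulk RNA was sequenced from about 200000 cells per library sorted for DLK (a surface protein found on hepatoblasts) at 9 daily stages, E10.5 to E18.5 (E, embryonic day), with 2 libraries per stage. Single cells of embryos from E10.5 to E17.5 were sorted as DLK+ or EpCAM+ (EpCAM is an epithelial surface protein), picked by mouth pipette and given a putative type by the authors, hepatoblast/hepatocyte or cholangiocyte. For the second question, lobes of E12.5 livers were kept for 2 days as explants with TPPB, a PKC agonist, at 0.5 µM, with U0126, a MEK1/2 inhibitor, at 10 µM, with both, or with neither (control, DMSO). All explants, controls included, had medium with 10% serum and 50 ng/ml EGF. The labels used here name no strain, allele or sex, and no manipulation of the embryos apart from the explant culture.

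Bulk libraries held 14385574 to 22791119 reads and the 529 single cells 763480 to 2111839 each. Since cells are not replicates, the reads of cells were added up within a group (stage, gate and putative type) that share a set number, with at least 2 cells per sum, which gave 42 sums from 443 of the 447 embryo cells. Nothing in the labels says that sets or replicate numbers are separate litters or animals, and p-values therefore cover the spread among these samples alone. The label of hepatoblasts and hepatocytes was checked against 6 markers of these cells (Alb, Afp, Apoa1, Ttr, Hnf4a and Dlk1), whose summed level in bulk ran from 17540 to 21330 CPM (the count scaled to a common library size) at E10.5 and from 336500 to 389400 CPM at E18.5. In bulk, fewer cells of a type and less RNA per cell cannot be told apart. The libraries also held markers of other cells. At E10.5, E14.5 and E18.5, 6 myeloid markers summed to 7.08 to 9.81, 288 to 381 and 153 to 173 CPM, and 5 stellate and mesenchymal markers to 469 to 607, 115 to 535 and 7.34 to 77.5 CPM. On these days 5 endothelial markers summed to 5.005 to 6.467, 16.73 to 19.55 and 73.85 to 129 CPM. For 6 red cell markers the sums were 4.453 to 6.405, 83.23 to 163.1 and 50.17 to 157.9 CPM. For 6 cholangiocyte markers they were 62.86 to 79.12, 6.769 to 8.12 and 41.59 to 104.3 CPM. Their part in the results was not tested in bulk. In the summed DLK+ cells of E10.5 and E17.5 the myeloid markers were at or below 12.0 CPM and the stellate and mesenchymal ones at or below 16.6 CPM. The endothelial ones were at or below 10.99 CPM, the red cell ones at or below 9.859 CPM and the cholangiocyte ones at or below 100.3 CPM.

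On the GRCm38 build (GENCODE M21) Cyp7a1 and Baat are both on chromosome 4, at 6265612 to 6275633 and 49489422 to 49506557, both on the minus strand. Hsd3b7 and Slc27a5 share chromosome 7, at 127800604 to 127803802 (plus) and 12988346 to 12998192 (minus). Cyp8b1 lies on chromosome 9 at 121914356 to 121916305 (minus), Cyp27a1 on chromosome 1 at 74713574 to 74737892 (plus), and Cyp7b1 on chromosome 3 at 18071950 to 18243338 (minus). Akr1d1 lies on chromosome 6 at 37530173 to 37568815 (plus), Amacr on chromosome 15 at 10981756 to 10996626 (plus), and Acox2 on chromosome 14 at 8225511 to 8259353 (minus). All 10 are protein-coding, and all counts are over the exons of the whole gene. Akr1d1 overlaps the predicted gene Gm7463 on the same strand. Hsd3b7 overlaps 9430064I24Rik on the opposite strand and Gm49388 on its own, and whether counting used strand is not given in the sources used here, so reads in these overlaps cannot be assigned with certainty.

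The 250 bases before the transcription start were used for 5 of the 10 genes, from RefSeq (assembly GRCm38.p6). These stretches were searched, together with the first 50 transcribed bases and on both strands, for the letters of 4 sites bound by factors of the hepatocyte lineage: CAAAGTCCA (an HNF4A core), CAAGGTCA (a site of NR5A2, also called LRH-1), GTTAAT (an HNF1 half-site) and TTGCNNAA (a C/EBP site). Cyp8b1 and Akr1d1 are shown because each has a match before its start and because both genes were almost without reads at E10.5. The capitals mark the match.
Cyp8b1, chr9:121916306-121916555, minus strand: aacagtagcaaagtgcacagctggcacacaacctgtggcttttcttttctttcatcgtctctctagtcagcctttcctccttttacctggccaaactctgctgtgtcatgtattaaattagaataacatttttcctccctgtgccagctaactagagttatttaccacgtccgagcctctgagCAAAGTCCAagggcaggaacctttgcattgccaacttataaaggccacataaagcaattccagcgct
Akr1d1, chr6:37529923-37530172, plus strand: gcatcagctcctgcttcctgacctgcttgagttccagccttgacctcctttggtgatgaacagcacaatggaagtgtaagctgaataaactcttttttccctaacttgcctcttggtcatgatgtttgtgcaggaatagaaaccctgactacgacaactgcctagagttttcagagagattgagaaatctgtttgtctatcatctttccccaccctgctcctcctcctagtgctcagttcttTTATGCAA
The Cyp8b1 match is CAAAGTCCA on the strand of the gene, beginning 67 bases before the start, and 0.475% of 32851 RefSeq mouse promoters of the same length hold these letters on either strand. The Akr1d1 match is TTGCNNAA read on the opposite strand, beginning 8 bases before the start. Acox2 has the same letters in 1 stretch, which lies 146 bases before 1 of its 2 starts and 34 bases after the other. TTGCNNAA occurs in 10.8% of promoters. Cyp27a1 and Hsd3b7 had no match, and CAAGGTCA and GTTAAT, which 1.56% and 7.1% of promoters hold, were in none of the 5. The windows of the 2 Acox2 starts overlap and share that stretch. Such a match is a run of letters, not a site shown to be bound.

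Bulk levels of 9 of the 10 genes rose from E10.5 to E18.5 by edgeR's quasi-likelihood test with Benjamini-Hochberg adjustment over all genes tested, called at an adjusted p below 0.05, and Cyp7b1 fell. Of all 15275 genes tested, 32.6% rose in the same comparison. The median log2 change of the 10 genes was 7.73, beside -0.02 over all genes tested, with the changes of 2 of them resting on 3 reads or fewer at 1 of the stages. Over the whole course, 9 of the 10 varied between stages and Cyp7b1 did not pass (adjusted p = 0.12), where 79.8% of all genes varied. Levels within a gene are given below as CPM after TMM scaling, and changes as log2 fold changes with the standard error of the fit.

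**Figure D1:**
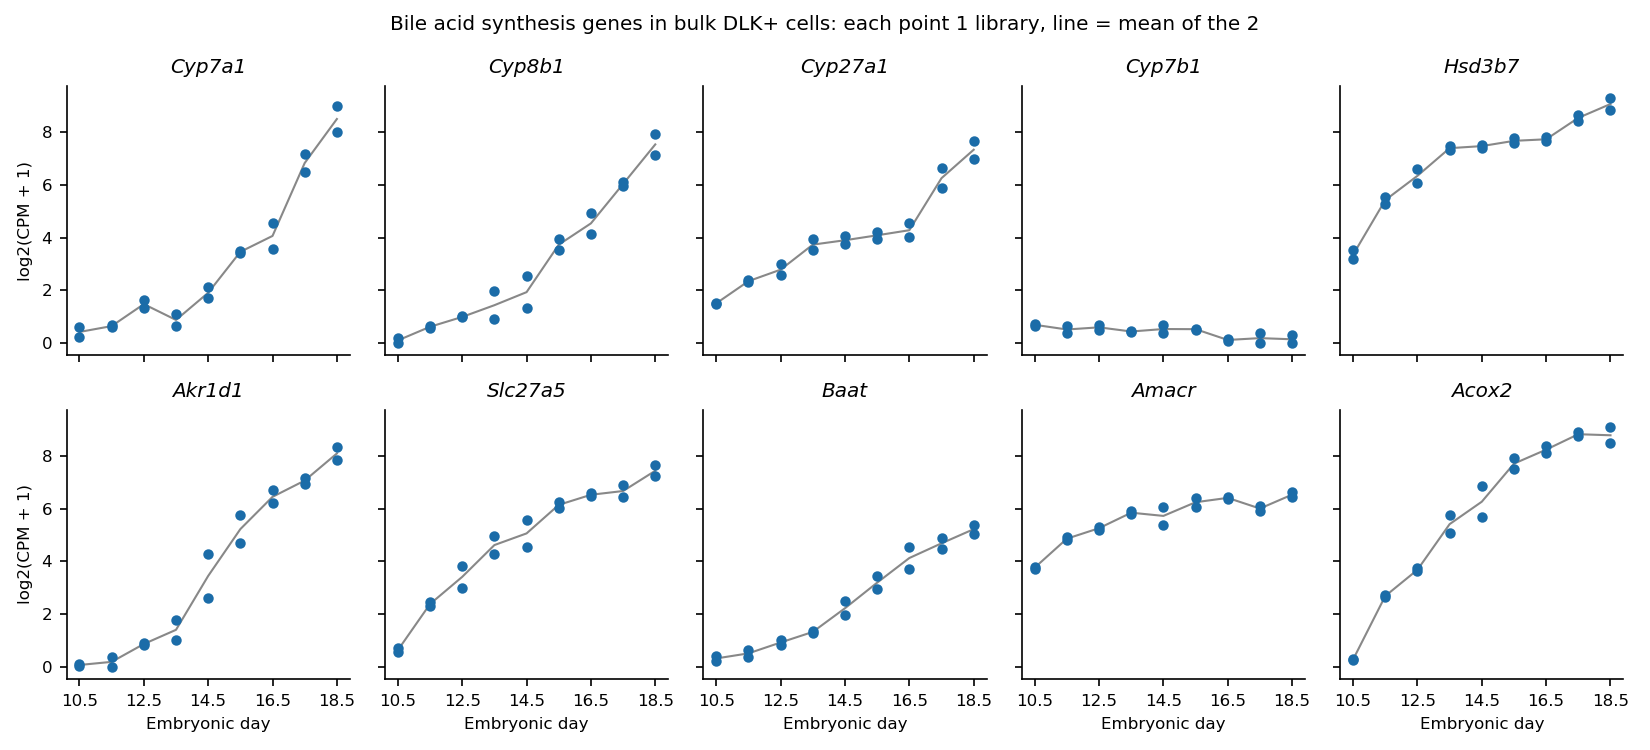
Level of each gene, as log2(CPM + 1), against embryonic day in bulk DLK+ cells; each point is 1 of 2 libraries per stage and the line joins their means. By E16.5 Cyp7a1 and Cyp27a1 have made 45.6% and 47.7% of their climb on this scale and Cyp8b1 60.01%, by E13.5 Hsd3b7 and Amacr 70.5% and 75.3%, and Cyp7b1 stays at 0.656 CPM or less.

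Cyp7a1, the entry to the classic route, was the last of the rising genes to reach 10% of its highest stage mean. Its 2 libraries held 0.188 and 0.518 CPM at E10.5, 2.24 and 3.36 CPM at E14.5, 22.52 and 10.99 CPM at E16.5, 88.3 and 145.5 CPM at E17.5, and 509 and 258.9 CPM at E18.5. From E15.5 on, the 2 libraries of each day were above both of any day up to E14.5, and from E16.5 to E18.5 no day's values overlapped the next day's. The rise over the whole course was 10.09 ± 0.57 on the log2 scale (adjusted p = 1.771e-09). It was 2.80 ± 0.39 for E17.5 against E16.5 (adjusted p = 0.000310) and 1.72 ± 0.36 for E18.5 against E17.5 (adjusted p = 0.0103).

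Cyp8b1, which directs the chain towards cholic acid, followed a like course. It reached 10% of its highest stage mean at E16.5, against E17.5 for Cyp7a1. In the daily tests given below, however, Cyp7a1 was first called at E14.5 and Cyp8b1 at E17.5. Cyp8b1 had 5 reads and 0 reads in the E10.5 libraries (0.156 and 0 CPM), reached 10.45 and 14.55 CPM at E15.5 and 61.3 and 68.9 CPM at E17.5, and ended at 244.8 and 140.6 CPM. All libraries from E15.5 on were above all earlier ones. The change from E10.5 to E18.5 was 11.09 ± 0.79 (adjusted p = 1.539e-08).

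Cyp27a1, the mitochondrial enzyme of the alternative route that also serves the side chain in the classic route, was already measurable at E10.5, at 1.88 and 1.83 CPM. It rose to 14.47 and 10.53 CPM by E13.5, and from E13.5 to E16.5 its 8 libraries stayed between 10.53 and 22.4 CPM. It then rose to 98.4 and 58.4 CPM at E17.5 (2.05 ± 0.29 against E16.5, adjusted p = 0.000376) and to 204.6 and 127.0 CPM at E18.5 (1.08 ± 0.28 against E17.5, adjusted p = 0.0284). Its course had a plateau between an early and a late rise, and none of the steps from E13.5 to E16.5 passed the test.

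Cyp7b1, the ring hydroxylase of the alternative route, fell, unlike the other 9. Its libraries held 0.656 and 0.587 CPM at E10.5, from 0.290 to 0.631 CPM at E11.5 to E15.5, and from 0 to 0.303 CPM at E16.5 to E18.5. The 2 E18.5 libraries together had 2 reads and the 2 E10.5 libraries 38 reads, a pooled ratio of 6.21 with a counting interval of 1.61 to 53.1. The fitted change of -2.53 ± 1.03 passed the threshold narrowly (adjusted p = 0.0415). It missed it with DESeq2 (adjusted p = 0.0735) and without E10.5 replicate 1 (0.0989), E10.5 replicate 2 (0.077) or E18.5 replicate 1 (0.302).

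Hsd3b7, the dehydrogenase that oxidises the ring in every route, was among the earliest. It went from 10.53 and 8.11 CPM at E10.5 to 46.3 and 38.3 CPM at E11.5 and 158.7 and 177.9 CPM at E13.5, stayed between 170.2 and 225.2 CPM from E14.5 to E16.5, and ended at 627.7 and 463.1 CPM. Its change from E10.5 to E18.5 was 5.87 ± 0.26 (adjusted p = 2.726e-10), and that of the first day alone was 2.18 ± 0.22 (adjusted p = 3.073e-05). Like Cyp27a1, it had a plateau and then another rise at E17.5 (0.82 ± 0.21, adjusted p = 0.0173).

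Akr1d1, the reductase that bends the ring system into the shape typical of bile acids, had 3 reads in both E10.5 libraries together. It stood at 1.03 and 2.45 CPM at E13.5, 5.08 and 18.7 CPM at E14.5, 24.9 and 53.2 CPM at E15.5, and 320.0 and 232.9 CPM at E18.5. The E18.5 libraries exceeded the E10.5 ones 5714-fold by their pooled reads, with a counting interval of 1954 to 2.772e+04. The fitted change was 12.27 ± 0.90 (adjusted p = 2.062e-08).

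Amacr, Acox2 and Slc27a5 divided into an early and a graded course. Amacr, a racemase that acts on side-chain intermediates, was 12.9 and 12.3 CPM at E10.5, 54.9 and 58.7 CPM at E13.5 and 97.4 and 86.5 CPM at E18.5, the smallest rise of the 9 at 2.87 ± 0.21 (adjusted p = 1.629e-08). Acox2, the peroxisomal oxidase of branched side chains, rose from 0.219 and 0.207 CPM at E10.5 to 5.60 and 5.30 CPM at E11.5, 32.6 and 53.3 CPM at E13.5, 180.6 and 241.2 CPM at E15.5 and 428.9 and 480.6 CPM at E17.5. Its E18.5 libraries, at 547 and 356.3 CPM, enclosed the E17.5 values. Slc27a5, the ligase that links bile acids to coenzyme A, rose from 0.6248 and 0.4833 CPM to 18.6 and 30.0 CPM at E13.5 and 199.9 and 149.7 CPM at E18.5. The changes from E10.5 to E18.5 were 11.01 ± 0.53 for Acox2 and 8.28 ± 0.48 for Slc27a5 (adjusted p = 5.379e-10 and 2.221e-09).

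Baat, the conjugating enzyme, rose in a graded way. It went from 0.156 and 0.345 CPM at E10.5 through 1.45 and 1.56 CPM at E13.5 and 6.66 and 9.96 CPM at E15.5 to 41.1 and 32.3 CPM at E18.5. That was a rise of 7.18 ± 0.46 (adjusted p = 5.695e-09).

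Each day was also compared with the day before. At E11.5, 5 genes rose (Cyp27a1, Hsd3b7, Amacr, Acox2 and Slc27a5), where 9.55% of all genes rose. None passed with edgeR at E12.5, where 0.426% of all genes rose. There 5 of the 10 had an unadjusted p below 0.05 with edgeR, as did 2383 of all 15275 genes tested. DESeq2 called 4 after adjustment, among 430 genes in either direction. The genes called at E11.5 all rose again at E13.5 (5.07% of all genes). At E14.5 the genes that rose were Cyp7a1, Akr1d1, Acox2 and Baat (15.4%). No gene of the set passed with edgeR at E15.5 (0.19% of all genes) or at E16.5 (0% of all genes). An unadjusted p below 0.05 with edgeR was seen for 7 of the 10 at E15.5 and 3 at E16.5. Of all 15275 genes tested, 1929 and 851 had such a p. After adjustment DESeq2 called 2 at E15.5 and 0 at E16.5, among 401 and 7 genes in either direction. Few genes of any kind passed on those days, and the E15.5 changes were not small: 2.03 ± 0.52 for Cyp8b1, 1.87 ± 0.43 for Cyp7a1, 1.74 ± 0.50 for Akr1d1 and 1.36 ± 0.32 for Acox2. With no filter on low counts 6 of the 10 passed at E15.5 and 4 at E16.5, and the share of all genes in that setting is not given here. At E17.5, Cyp7a1, Cyp8b1, Cyp27a1 and Hsd3b7 rose (5.89% of all genes), and at E18.5 Cyp7a1, Cyp8b1 and Cyp27a1 rose again (3.08%). Both Cyp8b1 calls were lost with DESeq2 (adjusted p = 0.108 and 0.102), with the replicate number as a block (0.0589 and 0.0571) and without any 1 of the 4 libraries compared (0.0532 to 0.326 and 0.0506 to 0.326). With DESeq2 or the block the counts were 3 at E17.5 and 2 at E18.5.

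Several of these daily counts rest on single libraries. The Cyp27a1 call at E11.5 was lost once a trend with GC content was removed (change 1.03, adjusted p = 0.0507 with edgeR). It was also lost without any 1 of the 4 libraries compared (changes of 1.07 to 1.21). The Amacr call at E13.5 was lost in the same settings (0.62, adjusted p = 0.125 with the GC trend removed, and changes of 0.52 to 0.64 without a library). The E14.5 libraries differed in all 4 genes called there, with Akr1d1 at 5.08 and 18.7 CPM and Acox2 at 50.4 and 114.5 CPM, and their hepatocyte marker sums were 82440 and 147300 CPM. The E14.5 count was 0 without E14.5 replicate 2, 1 without E13.5 replicate 1, 2 without E13.5 replicate 2, and 0 once a trend with GC content was removed. Without E14.5 replicate 2, 6 genes passed at E15.5. At E12.5, 2 passed without E12.5 replicate 1. The E13.5 count was 1 without E12.5 replicate 1, 3 without either E13.5 library, and 1 with the GC trend removed. The E17.5 count was 2 without either E16.5 library or without E17.5 replicate 1. The E18.5 count was 0 without E18.5 replicate 1 and 1 without either E17.5 library.

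The stage at which a gene first reached 50% of its highest stage mean in CPM gives an order of the genes, with no test. The order depends on the scale, as given below. Leaving out Cyp7b1, which was highest at E10.5, it was E13.5 for Amacr, E16.5 for Slc27a5 and Acox2, E17.5 for Hsd3b7 and Baat, and E18.5 for Cyp7a1, Cyp8b1, Cyp27a1 and Akr1d1. At 10% of the highest mean the order was Amacr (E10.5), Hsd3b7 (E12.5), Slc27a5 (E13.5), Baat and Acox2 (E14.5), Akr1d1 (E15.5), Cyp8b1 and Cyp27a1 (E16.5) and Cyp7a1 (E17.5). Over the 18 libraries the closest pairs by Pearson's r of log2(CPM + 1) were Akr1d1 with Baat (0.992), Slc27a5 with Acox2 (0.991) and Cyp7a1 with Cyp8b1 (0.981), while Cyp7a1 with Amacr reached 0.691. Cyp7b1 ran against all the others, with r from -0.68 to -0.793. These values describe 9 stages that share their trend with age.

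Between genes, only levels per length can be compared, and these are given as TPM (counts per gene length, scaled within a library) from the deposited gene lengths. At E10.5 the order was Amacr (mean 18.8 TPM), Hsd3b7 (6.87), Cyp27a1 (3.76), Cyp7b1 (1.10), Slc27a5 (0.926), Baat (0.501), Cyp7a1 (0.329), Acox2 (0.281), Cyp8b1 (0.149) and Akr1d1 (0.0721). From Baat on, the libraries of each gene overlapped those of the next, for example Baat at 0.3001 and 0.7026 TPM and Cyp7a1 at 0.168 and 0.490 TPM. At E18.5 Acox2 led with 168.5 ± 34.4 TPM (SD, n = 2), followed by Hsd3b7 (114.5 ± 13.4), Akr1d1 (111.5 ± 14.2), Cyp8b1 (106.8 ± 31.0), Cyp7a1 (99.0 ± 36.8), Cyp27a1 (94.9 ± 22.5) and Slc27a5 (83.3). Both Acox2 libraries (192.9 and 144.2 TPM) were above all others, while from Hsd3b7 to Slc27a5 the libraries of each gene overlapped those of the next. Amacr (39.2 ± 0.5), Baat (20.6 ± 1.5) and Cyp7b1 (0.061 ± 0.086) followed with no overlap. TPM carries no TMM scaling, and the size of a change depends on the scale. In TPM Amacr went from 18.8 at E10.5 to 53.7 at E16.5, its highest stage, and 39.2 at E18.5, whereas in CPM it was highest at E18.5. On both scales the 9 genes other than Cyp7b1 were higher at E18.5 than at E10.5. The deposited length of Hsd3b7 is longer than its annotated gene, so its place in both orders is uncertain.

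**Figure D2:**
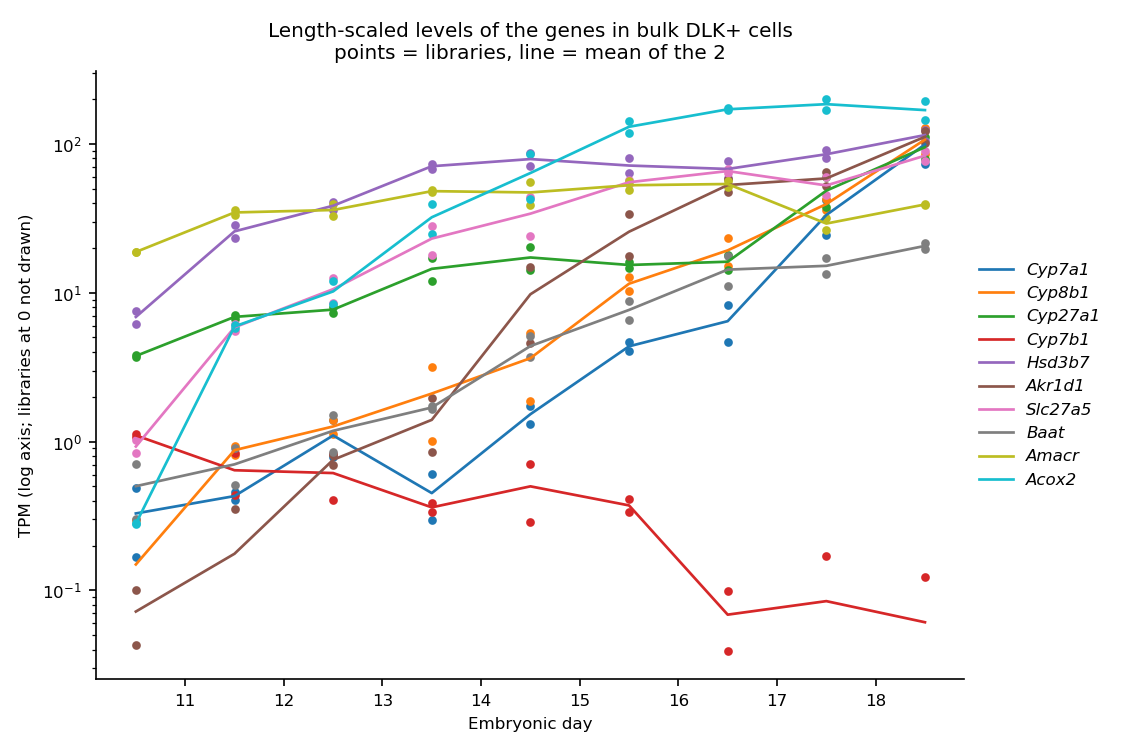
Levels of the 10 genes in TPM (log axis) against embryonic day in bulk DLK+ cells; points are libraries, lines join the means of 2, and libraries at 0 are not drawn. The genes span 0.0721 to 18.8 TPM at E10.5, while 7 of them lie between 83.3 and 168.5 TPM at E18.5.

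For each gene, the 3 other genes with the most similar course over the 18 libraries were taken from 9791 genes that reached a stage mean of 10 CPM. For Cyp7a1 these were Clpx (Pearson's r = 0.993), Hrg and Serpina3n, and for Cyp8b1 Sdc2 (0.994), Fgg and Pcx. Cyp27a1 was closest to Cyp4f13 (0.992), Tango2 and Echdc2, Hsd3b7 to Tfr2 (0.992), Hebp1 and Parp10, and Akr1d1 to Sult1a1 (0.993), Hsd17b13 and Akr1c14. Slc27a5 was closest to Ctsh (0.995), Ttc36 and Ttr, Baat to Cyp2a12 (0.993), Hsd17b13 and Adhfe1, Amacr to Slc26a1 (0.984) and Hgd, among others, and Acox2 to Chdh (0.997), Slc44a3 and F11. The best value for Cyp7b1 was lower, 0.882 with Crlf3, followed by Rbms3 and Gpr124.

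Single cells gave the same comparison in other libraries. In the DLK+ sums, 9 of the 10 genes rose from E10.5 (3 sums) to E17.5 (4 sums) by edgeR's quasi-likelihood test, where 14.2% of 16838 genes rose, and the count stayed 9 when any 1 sum was left out. Over the same days in bulk, a comparison added after the data were seen, 9 rose as well (31.3% of all genes). Both counts hold the same 9 genes, all but Cyp7b1.

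Cyp7a1 stood at 2.27, 0.978 and 0 CPM in the E10.5 sums, at 7.60, 0.610 and 5.69 CPM in the E15.5 sums, and at 175.0, 253, 180.1 and 393.2 CPM in the E17.5 sums. All 4 E17.5 sums were above every sum of an earlier stage, of which the highest held 18.2 CPM. Its change was 7.84 ± 1.75 from E10.5 to E17.5 (adjusted p = 0.000830) and 5.73 ± 1.58 from E15.5 to E17.5 (adjusted p = 0.0255). Cyp7a1 was the only gene of the set called in the last step, where 2.57% of all genes rose. That call was lost without E15.5 set 1, 3 or 4 or without E17.5 set 4 (adjusted p from 0.0636 to 0.128), and with spike-in RNA as the scale (0.0684). It was also lost with each set within its stage as a block (change 5.87). Such a block leaves a change between stages to 1 set of each stage, so this loss does not test an effect of sets.

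Cyp8b1 had 1 read in all E10.5 sums together, 8.24, 7.19 and 17.4 CPM at E15.5, and 154.5, 255.2, 68.8 and 67.9 CPM at E17.5. The pooled ratio of E17.5 to E10.5 was 1.08e+04, with a counting interval of 1936 to 4.265e+05. Akr1d1 rose from 0.0464, 0.202 and 0.361 CPM to 206.5, 251.2, 245.9 and 200.6 CPM, a change of 10.04 ± 1.59 (adjusted p = 7.466e-06), with E15.5 sums of 46.0 to 70.4 CPM in between. Cyp27a1 rose from 2.55, 0.304 and 0.677 CPM to 42.5, 47.8, 44.3 and 93.2 CPM (5.59 ± 1.32, adjusted p = 0.00128). With each set within its stage as a block the calls of Cyp7a1 and Cyp27a1 for E17.5 against E10.5 were lost (changes of 15.01 and 6.94). That fit again leaves the change to 1 set of each stage.

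Acox2 rose in more steps than any other gene of the set. Its sums held 1.86, 1.86 and 0.271 CPM at E10.5, 15.3, 11.7 and 11.4 CPM at E11.5, 71.8, 43.2 and 73.4 CPM at E13.5, 270.2, 294.0 and 460.0 CPM at E15.5, and 798.9, 828.1, 959.8 and 1095 CPM at E17.5, with no overlap between these stages. The step from E10.5 to E11.5 called Acox2 (3.25 ± 0.60, adjusted p = 0.000877) and Hsd3b7 (2.92 ± 0.44, adjusted p = 6.316e-05), against 2.11% of all genes. The steps to E13.5 and E15.5 called Acox2 alone (adjusted p = 0.0464 and 0.0167), against 0.41% and 0.665% of all genes. The E13.5 call was lost without any 1 of the 6 sums compared (adjusted p from 0.0583 to 0.245), and the E15.5 call without E13.5 set 1, 2 or 3 or E15.5 set 4 (adjusted p from 0.0533 to 0.124). From E10.5 to E17.5 its change was 9.41 ± 0.74 (adjusted p = 1.151e-11).

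Of the rest, Hsd3b7 rose from 15.2, 25.7 and 7.67 CPM at E10.5 to 415.2, 588.7, 538.4 and 472.9 CPM at E17.5 (4.96 ± 0.47, adjusted p = 6.872e-10). Slc27a5 rose from 6.03, 1.96 and 1.31 CPM to 171.3, 158.5, 103.2 and 187.0 CPM (5.65 ± 0.93, adjusted p = 1.53e-05). Amacr, at 45.1, 44.8 and 38.4 CPM at E10.5, rose least, to 122.7, 106.3, 104.8 and 144.8 CPM (1.48 ± 0.35, adjusted p = 0.00150). With spike-in RNA as the scale the Amacr rise was 1.20 (adjusted p = 0.0513). Baat, at 0, 0.810 and 0 CPM at E10.5, reached 51.5, 38.4, 28.2 and 83.7 CPM (7.42 ± 1.88, adjusted p = 0.00271). Cyp7b1 had 26 reads at E10.5 and 0 reads in every DLK+ sum from E14.5 to E17.5, and its decrease to E17.5, by a factor of at least 2.74 at a floor of 3 reads over the group, did not pass (adjusted p = 0.24).

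**Figure D3:**
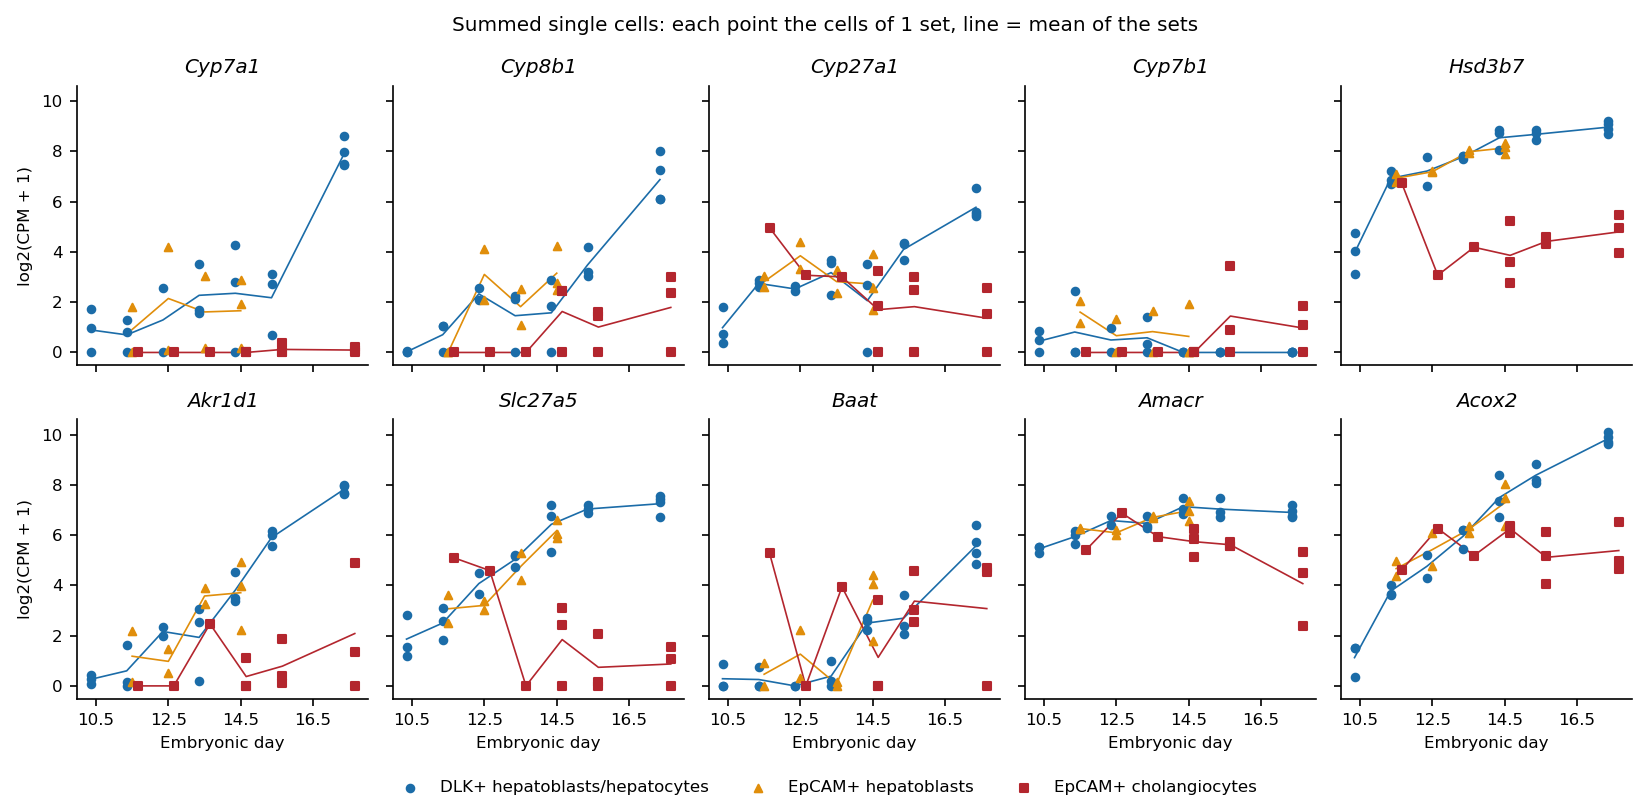
Level of each gene, as log2(CPM + 1), in reads summed over the embryo cells of 1 set, against embryonic day. Blue circles are DLK+ hepatoblasts/hepatocytes, orange triangles EpCAM+ hepatoblasts and red squares EpCAM+ cholangiocytes, and lines join the means of the sets; at E17.5 the cholangiocyte sums of Cyp7a1 stay at 0.151 CPM or less while the DLK+ sums lie between 175.0 and 393.2 CPM.

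Between EpCAM+ cells annotated as hepatoblasts and DLK+ cells, none of the 10 genes passed over E11.5 to E14.5 by edgeR's quasi-likelihood test (0 of 10 called, 0 of 10 at an unadjusted p below 0.05). DESeq2 called 1 after adjustment, Baat, among 70 genes in either direction. Of 16838 genes edgeR called 0.0238%, and 826 had an unadjusted p below 0.05. The mean differences ranged from -0.75 ± 0.81 for Cyp8b1 to 2.12 ± 1.34 for Cyp7b1, so differences of a few fold were not detectable for the genes with few reads, while Hsd3b7 (-0.10 ± 0.23) and Amacr (-0.03 ± 0.20) were held to narrower limits. At E14.5 Hsd3b7 stood at 285.4, 239.6 and 324.2 CPM in the EpCAM+ hepatoblast sums and at 266.6, 422.8 and 457.3 CPM in the DLK+ sums.

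Cells annotated as cholangiocytes, which came through the EpCAM+ gate, were compared with DLK+ cells of the same day, and every call was a lower level in cholangiocytes. At E14.5, 5 of the 10 were lower (6.74% of all genes), at E15.5 5 (7.73%) and at E17.5 8 (11.2%), with 3 sums of each type apart from 4 of DLK+ cells at E17.5. Hsd3b7 and Slc27a5 were far apart on every day. At E14.5 Hsd3b7 stood at 36.8, 11.1 and 5.76 CPM in cholangiocytes (-4.44 ± 0.48, adjusted p = 1.094e-07), and at E17.5 at 29.7, 14.7 and 43.7 CPM (-4.08 ± 0.45, adjusted p = 2.072e-08). Slc27a5 was at 7.68, 4.33 and 0 CPM in cholangiocytes and at 39.2, 107.3 and 146.1 CPM in DLK+ cells at E14.5 (-4.68 ± 0.93, adjusted p = 0.000779), and at 1.96, 0 and 1.07 CPM in cholangiocytes at E17.5 (-6.98 ± 1.02, adjusted p = 3.094e-06). No cholangiocyte sum of either gene reached the lowest DLK+ sum of its day.

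Akr1d1 and Amacr were also lower in cholangiocytes on all 3 days. Akr1d1 differed by -4.81 ± 1.39, -5.71 ± 1.31 and -4.43 ± 1.18 (adjusted p = 0.0198, 0.00224 and 0.00542), and Amacr by -1.37 ± 0.37, -1.47 ± 0.37 and -2.43 ± 0.37 (adjusted p = 0.0127, 0.00531 and 6.005e-06). Acox2 did not pass at E14.5 (-1.42 ± 0.52, adjusted p = 0.0748), and was lower at E15.5 (-3.10 ± 0.55, adjusted p = 0.000119) and at E17.5 (-4.22 ± 0.57, adjusted p = 7.153e-07). Cyp7a1 had 0 reads in the E14.5 cholangiocytes and 160 in the DLK+ cells, at least 42.7-fold lower at a floor of 3 reads over the group (adjusted p = 0.0369), although 1 of the 3 DLK+ sums was at 0 too. This call was lost with the set number as a block (adjusted p = 0.168), in sums of at least 5 cells (0.0995), and without DLK+ set 2 or 3 or any 1 of the cholangiocyte sums (0.0528 to 0.122). At E14.5 the count was 2 without DLK+ set 3 or without cholangiocyte set 1 and 3 without cholangiocyte set 2. Leaving out any 1 sum gave 5 or 6 at E15.5 and 8 in each case at E17.5.

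Of the cytochromes, Cyp7a1 did not pass at E15.5, with 0, 0 and 0.286 CPM in cholangiocytes and 7.60, 0.610 and 5.69 CPM in DLK+ cells, without overlap (-5.83 ± 2.06, adjusted p = 0.0579; called with DESeq2, with spike-in RNA as the scale, with no filter and in sums of at least 5 cells). Cyp8b1 and Cyp27a1 passed at E17.5 and on neither earlier day. At E17.5 Cyp7a1 held 0.151, 0 and 0.0596 CPM in cholangiocytes (-11.22 ± 2.19, adjusted p = 0.000232), Cyp8b1 7.12, 0 and 4.11 CPM (-5.11 ± 1.37, adjusted p = 0.00597), and Cyp27a1 4.87, 0 and 1.91 CPM (-4.56 ± 1.25, adjusted p = 0.00668). No cholangiocyte sum of the 3 genes overlapped the DLK+ sums. Cyp7b1 and Baat were the exceptions. Baat stood at 22.4, 0 and 24.7 CPM in cholangiocytes and did not pass (-1.67 ± 1.39, adjusted p = 0.43), although its 3 sums were all below the lowest DLK+ sum of 28.2 CPM. Cyp7b1 had 2.56, 0 and 1.13 CPM in cholangiocytes and 0 in all 4 DLK+ sums, and did not pass either (adjusted p = 0.13). The E17.5 cholangiocyte sums still held 36840 to 57460 CPM of the 6 hepatocyte markers, beside 318800 to 345000 CPM in DLK+ cells, and 6678 to 10160 CPM of 6 cholangiocyte markers (Epcam, Sox9, Krt7, Krt19, Spp1 and Cldn4), beside 10.6 to 37.2 CPM. Type and gate cannot be told apart when cholangiocytes are compared with DLK+ cells alone. At E14.5 the EpCAM+ gate also gave 3 sums of hepatoblasts, whose Hsd3b7 levels are given above. They were not tested against the cholangiocytes of that gate. The comparison of gates given above covered hepatoblasts of E11.5 to E14.5 alone, so an effect of the gate was not tested here.

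Over time, the change of Acox2 from E14.5 to E17.5 differed between the types by 2.81 ± 0.72 (adjusted p = 0.0224, 3.21% of all genes called), with Acox2 at 78.1, 66.8 and 82.4 CPM in cholangiocytes at E14.5 and at 30.3, 24.2 and 91.9 CPM at E17.5. It missed the threshold in the sums of at least 5 cells (adjusted p = 0.139) and without DLK+ set 1 or 2 of E14.5 or cholangiocyte set 1 or 3 of E17.5 (adjusted p from 0.0628 to 0.0856). The other 9 genes did not pass this test. Within cholangiocytes 1 gene fell from E14.5 to E17.5, Amacr, from 34.5, 56.0 and 74.6 CPM to 38.7, 4.26 and 21.8 CPM (-1.32 ± 0.37, adjusted p = 0.0436, 2.13% of all genes). This call was lost with spike-in RNA as the scale (0.499), in sums of at least 5 cells (0.135), and without set 2 or 3 of E14.5 or set 3 or 4 of E17.5 (0.0956 to 0.185). It was also lost with each set within its stage as a block (change -1.76), which leaves a change between stages to 1 set of each stage. Akr1d1 went the other way, from 0, 0 and 1.17 CPM to 1.56, 0 and 28.9 CPM, and did not pass (4.37 ± 1.37, adjusted p = 0.0756). It was called with DESeq2, with no filter and in sums of at least 5 cells.

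Cell by cell, the share of DLK+ cells with at least 1 read of a gene rose at different times. A cell held reads of a median of 2 of the 10 genes at E10.5 (1 to 4, 54 cells), 6 at E15.5 (4 to 8, 39 cells) and 8 at E17.5 (6 to 9, 35 cells), with median depths of 1049582.5, 1112918 and 1168273 reads. At E17.5, 17 of the 35 cells had reads of all 9 genes other than Cyp7b1. Cyp7a1 was seen in 20.5% of the E15.5 cells and in 88.6% of the E17.5 cells (31 of 35, exact 95% interval 73.3% to 96.8%), and Cyp8b1 in 43.6% and 91.4%. Akr1d1, Hsd3b7, Amacr and Acox2 had reads in all 35 cells of E17.5, Slc27a5 in 97.1%, Cyp27a1 in 82.9% and Baat in 65.7%. Cyp7b1 had none in the 35 cells, which allows a share of up to 10%. These shares are over cells, which are not replicates, and the intervals cover counting error only.

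In the 34 cholangiocytes of E17.5, at a median depth of 1013766 reads, the shares were 11.8% for Cyp7a1 and 8.82% for Slc27a5 (3 of 34 cells), 29.4% for Cyp8b1, 47.1% for Akr1d1, 55.9% for Acox2, 58.8% for Baat, 79.4% for Hsd3b7 and 82.4% for Amacr. No cholangiocyte had 10 reads of Cyp7a1, whereas 88.6% of the DLK+ cells did, the same share as with 1 read. For Akr1d1 the share of cholangiocytes fell to 26.5% at 10 reads. Thinned to 500000 reads per cell, the DLK+ share of Cyp7a1 was 88.6% and that of cholangiocytes 5.88%.

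**Figure D4:**
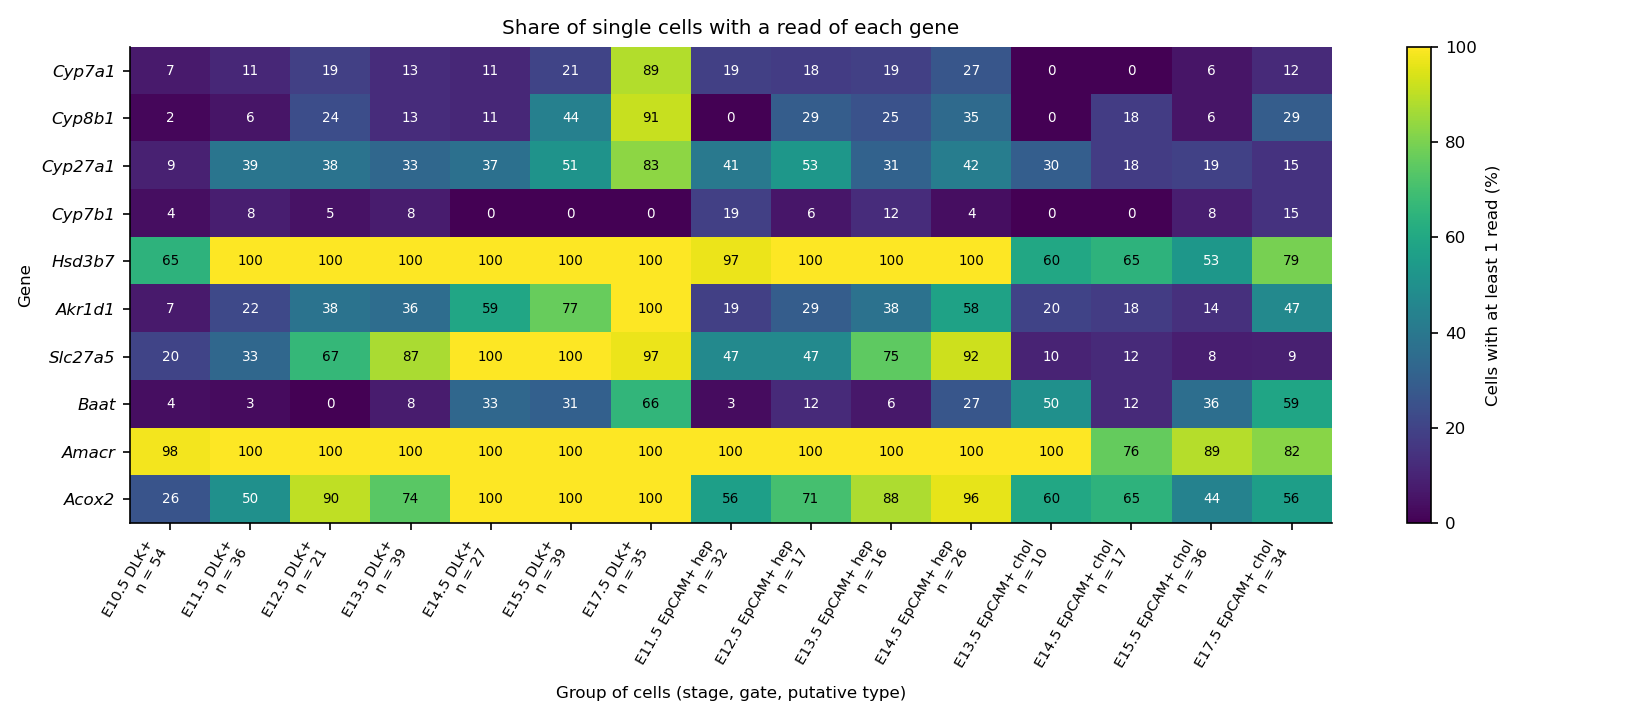
Percent of single cells with at least 1 read of each gene (colour and printed value, 0 to 100%) in groups of 10 or more embryo cells by stage, gate and putative type (hep, hepatoblast/hepatocyte; chol, cholangiocyte). In DLK+ cells Cyp7a1 goes from 20.5% at E15.5 to 88.6% at E17.5, while Hsd3b7 and Amacr are near 100% from E11.5.

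Most E17.5 DLK+ cells held reads of Cyp7a1 and Cyp8b1 together. Of the 35 DLK+ cells, 29 had reads of both Cyp7a1 and Cyp8b1, 2 of Cyp7a1 only, 3 of Cyp8b1 only and 1 of neither. At E15.5, 3 of 39 had both, 5 Cyp7a1 only, 14 Cyp8b1 only and 17 neither. In the E17.5 cholangiocytes, 3 of 34 had both, 1 Cyp7a1 only, 7 Cyp8b1 only and 23 neither. Per length, Cyp7a1 ran from 0 to 256.9 TPM over the E17.5 DLK+ cells (median 41.5), Cyp8b1 from 0 to 354.1 TPM (median 37.3) and Acox2 from 141 to 656.1 TPM (median 267.6). Cyp7a1 and Cyp8b1 levels were nearly unrelated across these 35 cells (Pearson's r = 0.129), and Cyp7a1 with Cyp27a1 reached 0.407. These are descriptions over cells that share sets and depth.

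In explants, none of the 6 genes that could be tested (Hsd3b7, Amacr, Slc27a5, Baat, Acox2 and Cyp27a1) passed in the EpCAM+ cells annotated as cholangiocytes, by edgeR's quasi-likelihood test with treatment and round (sets 1 and 2, or 3 and 4) as terms. The sums were 3 control (sets 1, 2 and 3), 2 TPPB (sets 1 and 2), 2 U0126 and 2 TPPB with U0126 (sets 3 and 4 for each). The share of all genes without overlap between 2 treatments was not counted. With TPPB, 1.75% of all 13881 genes were called lower. Of the 6 genes, 3 had an unadjusted p below 0.05, as did 1981 of all 13881 genes. DESeq2 called 2 (Hsd3b7 and Slc27a5), among 1112 genes in either direction. When no filter on low counts was used, edgeR called 3, and the share of all genes in that setting is not given here. Hsd3b7 stood at 154.3, 192.2 and 205.4 CPM in control sums and at 60.4 and 41.2 CPM with TPPB, without overlap (-1.77 ± 0.52, adjusted p = 0.17). Amacr stood at 61.4, 21.7 and 38.0 CPM and at 3.21 and 7.24 CPM, also without overlap (-2.98 ± 1.10, adjusted p = 0.28). Slc27a5 stood at 27.7, 0.555 and 19.8 CPM in control sums and had 0 reads with TPPB, at least 152.2-fold lower at a floor of 3 reads over the group (adjusted p = 0.19). Cyp27a1, at 2.66 and 0 CPM with TPPB, was also below all control sums (-3.24 ± 2.45, adjusted p = 0.65). At 4 residual degrees of freedom, edgeR recovered 0% of simulated 4-fold, 6% of 16-fold and 44% of 64-fold rises among all genes for TPPB against control. The same spread was assumed for every gene, and falls were not simulated.

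The remaining genes were low in these cells. Baat and Acox2 ranged from 0 to 1.22 and from 0 to 10.2 CPM in control sums, and Cyp27a1 from 2.80 to 17.9 CPM. Cyp7a1, Cyp8b1, Cyp7b1 and Akr1d1 did not pass the filter on low counts and had 0, 15, 0 and 4 reads over all control sums. Beside these values, the 6 hepatocyte markers summed to 66870 to 175900 CPM in control sums and to 457.9 to 1866 CPM with TPPB, and the 6 cholangiocyte markers to 617.2 to 9454 CPM and 11620 to 12800 CPM. Their part in the result was not tested.

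With U0126 and TPPB together, Hsd3b7 stood at 118.4 and 340.5 CPM, Amacr at 3.19 and 35.0 CPM and Slc27a5 at 2.66 and 21.4 CPM. With U0126 alone the values were 172.8 and 247.8 CPM for Hsd3b7, 50.0 and 32.7 CPM for Amacr and 1.27 and 12.4 CPM for Slc27a5. With edgeR, neither TPPB added to U0126 nor U0126 against control called any of the 6 genes, or any gene at all (0% of all genes). In both, 0 of the 6 had an unadjusted p below 0.05, where 338 and 139 of all genes did. DESeq2 called 0 of the 6 after adjustment in both. The other 3 genes did not pass with U0126 alone either, and the control sums include sets 1 and 2, which have no U0126 sum. Acox2 stood at 25.7 and 17.2 CPM with U0126 (control 0, 10.2 and 5.60), Baat at 8.67 and 1.58 CPM (control 0, 1.22 and 0.530), and Cyp27a1 at 0 and 1.70 CPM (control 7.32, 17.9 and 2.80).

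**Figure D5:**
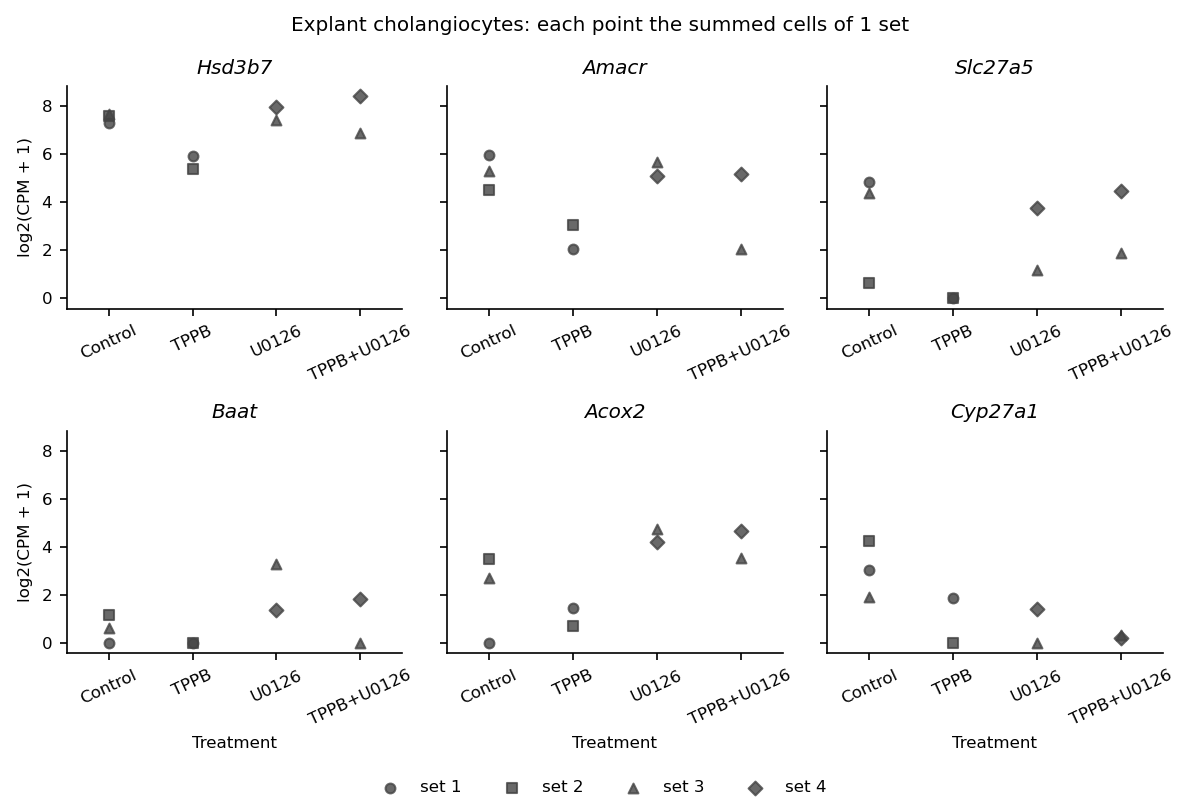
Level of 6 genes, as log2(CPM + 1), in EpCAM+ explant cells annotated as cholangiocytes, by treatment; each point is the summed cells of 1 set and its shape gives the set. Hsd3b7 and Amacr lie lower in both TPPB sums, at 41.2 to 60.4 and 3.21 to 7.24 CPM, than in the 3 control sums, and neither difference passed the test.

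DLK+ explant cells gave 1 sum each of control (5 cells) and TPPB (6 cells) from set 2, so no test was possible and the intervals cover counting error only. Hsd3b7 was 294.2 CPM (280.5 to 308.4) in control and 260.6 CPM (248.8 to 272.9) with TPPB, Acox2 141.5 (132 to 151.4) and 147.9 CPM (139 to 157.2), and Amacr 85.3 (78.0 to 93.1) and 77.7 CPM (71.3 to 84.5). Cyp8b1 had 0 reads in control (0 to 0.628 CPM) and 26.8 CPM with TPPB (23.1 to 30.9), and Cyp27a1 5.11 (3.45 to 7.29) and 25.03 CPM (21.5 to 29.0). Cyp7a1 was at 0 and 0.143 CPM and Akr1d1 at 0.170 and 0 CPM, both with 1 read at most. Baat stood at 30.3 and 36.1 CPM and Slc27a5 at 45.8 and 31.6 CPM.

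Other genes of the pathway were taken from 4 lists, described by counts. Among 12 tested of 13 other synthesis genes, 11 rose and 1 fell in bulk from E10.5 to E18.5 (32.6% and 32.5% of all genes), with a median log2 change of 5.41 beside -0.02 over all genes. The largest rises were Akr1c14 (11.64 ± 0.93) and Akr1c6 (9.10 ± 0.47), aldo-keto reductases, and Cyp2c70 (7.29 ± 0.35), which makes the muricholic acids of mice. The gene that fell was Cyp46a1 (-6.97 ± 1.62), the cholesterol hydroxylase known from brain. In DLK+ sums 10 of the 12 rose from E10.5 to E17.5 (14.2% of all genes) and none fell by edgeR (Cyp46a1 -6.21 ± 2.90, adjusted p = 0.11). In E17.5 cholangiocytes 7 of the 12 were lower than in DLK+ cells (11.2% of all genes), among them Akr1c6 (-10.22 ± 2.02), Cyp2c70 (-4.42 ± 0.74) and Slc27a2 (-3.24 ± 0.27). With TPPB, 2 of 10 tested were lower in explant cholangiocytes (1.75% of all genes), Slc27a2 (-12.68 ± 1.59, adjusted p = 0.00779) and Cyp2c70 (-8.55 ± 1.38, adjusted p = 0.0236).

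Of 6 genes for electron supply and cholesterol delivery, 5 rose in bulk (32.6% of all genes, list median 2.44). These include Stard5, a sterol carrier (4.74 ± 0.29), Fdx1, the ferredoxin that feeds mitochondrial cytochromes (4.19 ± 0.36), and Por, the reductase of microsomal ones (3.58 ± 0.23), while Star did not pass (0.35 ± 0.63). In DLK+ sums 4 of 6 rose (14.2% of all genes), and 5 of 6 were lower in E17.5 cholangiocytes (11.2%), led by Por (-3.14 ± 0.29) and Stard5 (-3.09 ± 0.44).

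Among 12 tested of 13 regulators, 9 rose in bulk from E10.5 to E18.5 and none fell (32.6% and 32.5% of all genes, list median 1.09). From E10.5 to E17.5, 6 rose and 2 fell (31.3% and 30.9% of all genes), the latter Nr5a2 (-0.54 ± 0.22) and Prox1 (-0.79 ± 0.25). Nr1h4, the bile acid receptor FXR, rose most (10.15 ± 0.48), followed by Nr1i2, the xenobiotic receptor PXR (3.66 ± 0.26), and Nr0b2, the repressor SHP that FXR induces (2.90 ± 0.52). Fgfr4, the hepatocyte receptor for FGF15, Nr5a2 and Prox1 did not pass at E18.5. In DLK+ sums 5 of the 12 rose (14.2% of all genes), again with Nr1h4 first (12.48 ± 1.69) and with Nr0b2 not passing (0.36 ± 1.65, adjusted p = 0.93). In E17.5 cholangiocytes Nr1h3, Klb and Hnf4a were lower (-2.01 ± 0.36, -1.08 ± 0.29 and -0.86 ± 0.29), and Fgfr4 was higher (1.10 ± 0.32). Of the bile acid transporters, 6 of 6 tested rose in bulk (32.6% of all genes). In E17.5 cholangiocytes 4 of 5 tested were lower (11.2% of all genes), led by Slc10a1, the hepatocyte uptake carrier (-6.59 ± 1.22), and Abcb11, the canalicular export pump (-6.18 ± 0.95), and 1 was higher (as were 2100 of all 16838 genes), Abcc3, a basolateral exporter (9.18 ± 2.86, adjusted p = 0.0210).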

How the data were processed

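RNA of mouse fetal liver was sequenced in 18 bulk libraries and 529 cells. The deposited tables hold unscaled counts of reads for 40824 genes and 92 ERCC spike-in RNAs. The submitters' processing notes name TopHat2 2.1.0, Bowtie2, HTSeq 0.6.0 and the GRCm38 build. A directional poly(A) kit was used for bulk RNA and Smart-seq2 for cells, with 18 amplification cycles and no molecular identifiers, per the labels' protocols, so intervals and floors cover counting error only. Whether counting used strand is not given in the sources used here.

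Spike-in rows stayed out of library sizes and tests. Symbols shared by 151 rows were told apart by Ensembl identifier, and none of them belongs to the 10 genes. Cell reads were summed per group and set, with at least 2 cells per sum, giving 2338674 to 28130886 reads per embryo sum. Counts were tested with edgeR 4.0.16 (R 4.3.3): TMM, filterByExpr at a minimum count of 10, quasi-likelihood fits of all bulk libraries, all embryo sums, and the 9 explant cholangiocyte sums, Benjamini-Hochberg adjustment over all genes of a comparison, called below 0.05. Standard errors were obtained as the change over the root of the F statistic. Levels are TMM-scaled CPM, or for DLK+ explant cells unscaled CPM with exact Poisson intervals. TPM was recomputed from counts using the gene lengths in the deposited tables. Shares of cells have Clopper-Pearson intervals at 95%. Where all samples of a side had 0 reads, the fold is a bound at 3 reads over the group.

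On simulated counts, bulk E18.5 against E10.5 recovered 54% of 2-fold and 100% of 4-fold changes among 15275 genes, and DLK+ cells E17.5 against E10.5 recovered 6% of 4-fold, 88% of 16-fold and 100% of 64-fold changes among 16838 genes. Alternatives were DESeq2 1.42.0, RLE scaling, ERCC reads as library size, no filter, removal of a GC trend, sums of at least 5 cells, a block, and each library or sum left out. The block was the replicate number in bulk, the set within its stage in embryo sums and the set number in explants. In embryo sums it leaves a change between stages to 1 set of each stage. Same-numbered bulk libraries deviated from their stage means with correlations of -0.329 to 0.31 over 36 pairs of stages, and same-numbered sums of a stage with -0.00614 to 0.126 over 20 pairs, so the numbers were not taken to pair samples. All 10 genes are named. Of each other list up to 4 called genes with the largest change are named, and likeness used genes other than predicted ones; 1 gene that it named is not reported here. The 10 genes, the lists and the comparisons were chosen with earlier results of these data known. The 4 embryo cells outside the sums are given in the closing section where they are EpCAM+ hepatoblasts, and the authors' deposited TPM tables, pooled by stage for bulk, were not used.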

Additional observations from a re-analysis of the deposited data

Results flagged for a closer look

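In E17.5 DLK+ cells the Cyp27a1 sum of set 4 held 93.2 CPM, apart from 42.5, 47.8 and 44.3 CPM in the other sets, a gap wide enough to mark it as an outlier by Dixon's test at 95%. Chance alone marks about 1 group in 20.

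Acox2 changed differently from E14.5 to E17.5 in DLK+ cells and in cholangiocytes, by 2.81 on the log2 scale in a direct test of the difference (adjusted p = 0.0224, edgeR). The call was lost with sums of at least 5 cells (adjusted p = 0.139) and without DLK+ set 1 or 2 of E14.5 (0.0856 and 0.0628) or cholangiocyte set 1 or 3 of E17.5 (0.0704 and 0.0793).

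Some cells entered no comparison, among them EpCAM+ cells annotated as hepatoblasts at E15.5 and E17.5. Their reads covered 5 of the 10 genes in the E15.5 cell of set 2, 6 in that of set 4 and 8 in the E17.5 cell of set 4. The E17.5 cell had 83 reads of Cyp7a1, 132 of Cyp8b1 and 0 of Baat and Cyp7b1. Neither E15.5 cell had a read of Cyp7a1, and Acox2 had 365 and 529 reads in them.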

How the results depend on the processing

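The direction held in every setting tried for all called results of single genes. Of these, 375 kept their call and 29 lost it over the settings other than leaving out a sample, and 317 kept it and 72 lost it when 1 library or sum was left out. Counts of called genes, out of 10, that moved by over 1.5 times were as follows, and the other counts moved by 2 at most. With DESeq2 the count was 4 at bulk E12.5, 2 at bulk E15.5, 2 for DLK+ E17.5 against E15.5, 2 for cholangiocytes E17.5 against E14.5, 1 for EpCAM+ hepatoblasts and, of 6 tested, 2 for TPPB. With no filter on low counts it was 5 at bulk E12.5, 8 at E13.5, 6 at E15.5, 4 at E16.5 and 5 at E18.5, 2 for cholangiocytes E17.5 against E14.5 and 3 for TPPB. The shares of all genes without the filter are not given here. With ERCC reads as library size it was 0 for DLK+ E13.5, E15.5 and E17.5 against the stage before and 0 for cholangiocytes over time; this scale shifted all genes by -0.43 to 0.58 (log2). RLE scaling gave 0 for DLK+ E13.5, the GC trend removed gave 1 at bulk E13.5 and 0 at E14.5, and sums of at least 5 cells gave 0 for the Acox2 difference between types.

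The replicate block gave 0 for DLK+ E13.5 against E11.5, 0 for E17.5 against E15.5 and 0 for cholangiocytes E17.5 against E14.5. It moved no other count of the 10 genes by over 1.5 times. For embryo sums the block took each set within its stage, which leaves a change between stages to 1 set of each stage. The counts of 0 above therefore do not test an effect of sets. The labels do not say what the numbers stand for, and 10 of 36 pairs of bulk stages and 1 of 20 pairs of sums correlated above 0.1.

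Leaving out 1 library or sum gave counts from 0 to 2 at bulk E12.5, 1 to 4 at E13.5, 0 to 4 at E14.5, 0 to 6 at E15.5, 2 to 3 at E17.5 and 0 to 2 at E18.5. It gave 0 to 0 for DLK+ E13.5, 0 to 1 for DLK+ E15.5, 0 to 1 for DLK+ E17.5 against E15.5, 0 to 1 for the difference of change between types, 0 to 2 for cholangiocytes over time and 2 to 6 for cholangiocytes against DLK+ cells at E14.5. A lone sample left in a group was assumed to vary like the others. Depth limits the genes with few reads, Cyp7b1 throughout and Cyp8b1 and Akr1d1 at E10.5. Of 50 shares of cells, 5 moved when 10 reads were asked for and 1 when cells were thinned.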

Other observations

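Cholangiocytes before E14.5 entered no comparison, since each stage gave 1 sum, of 2 cells at E11.5, 3 at E12.5 and 9 at E13.5. Baat stood at 37.8, 0 and 14.3 CPM in these 3 sums, above the DLK+ sums of E11.5 and E13.5, which held 0.973 CPM at most. Slc27a5 stood at 33.4, 23.1 and 0 CPM, and Hsd3b7 at 107.0, 7.42 and 17.2 CPM. Cyp7a1, Cyp8b1 and Cyp7b1 had 0 reads in all 3 sums. Amacr stood at 41.05, 116.6 and 60.4 CPM, while the DLK+ sums of E11.5 to E13.5 ran from 49.6 to 107.8 CPM.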
